A study of Rattus norvegicus with 29 samples.

Results

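Potassium and sodium channel genes were followed across age in the CA1 field of the rat hippocampus. The members are all probe sets whose single gene symbol in the platform annotation begins with Kcn, with Scn and a digit, or with Hcn and a digit. This gave 99 of the 8740 non-control probe sets, for 64 of 4736 genes. No member carries an Hcn symbol, so the pacemaker channels named in the rule have no member and were not analysed here. RNA was hybridised to 29 Affymetrix rat arrays of 1 design, on which every probe set has a signal and is called present, marginal or absent. The arrays are from male Fischer rats, with 9 arrays of young rats (4 months), 10 of mid-aged rats (14 months) and 10 of aged rats (24 months). Rats of every age had been trained on 2 tasks, named SWM and OMT, over 7 days and were sampled 24 h later, so no untrained group is among the samples. Whether an array stands for a single rat is not stated, so p-values reflect only how much these arrays vary.

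Potassium channels let potassium leave the cell, which ends the action potential, sets the resting potential and limits how often a neuron fires. Voltage-gated sodium channels carry the inward current that starts and spreads the action potential. In CA1 pyramidal cells an inactivating potassium current of the dendrites, a slow current that is shut by muscarinic receptors, and sodium channels packed at the start of the axon set much of the cell's excitability.

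The arrays differ in ways that age does not give. The names of the signal columns come in a longer and a shorter style, with 5 young, 4 mid-aged and 0 aged arrays named in the shorter. The 6 arrays least like the rest are 1 young, 2 mid-aged and 3 aged. Markers of the tissue were also read, and those with a present call on at least 9 arrays were tested. All 7 neuron markers with a probe set, among them Snap25 and Nefl, were tested and were present on every array. Of 8 markers of CA1 and principal cells with a probe set, 6 were tested. Of these, 4 were present on every array, Grin2a on 26 arrays and Camk2a on 15. These calls show neuronal transcripts and do not by themselves show that the tissue was CA1. Each array called between 35.6% and 46.5% of the probe sets present, and how many arrays there are sets how precise each value is.

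Most channel probe sets were not detected in this tissue. Testing for change required a present call on 9 or more of the 29 arrays. This held for 24 of the 99 members (24.2%), for 20 genes, against 44.2% of all 8740 probe sets. On every array 14 members were present, 59 were present on none, and the other 16 that missed the minimum had 1 to 8 present calls. An absent call says that the signal was not told apart from the probe set's own mismatch probes, and does not show that the transcript is missing. Signal alone does not settle it: the probe set AF020712_at of Kcnmb1, an auxiliary subunit of the calcium-activated channel, had a median signal of 1367 and 0 present calls.

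**Figure D1:**
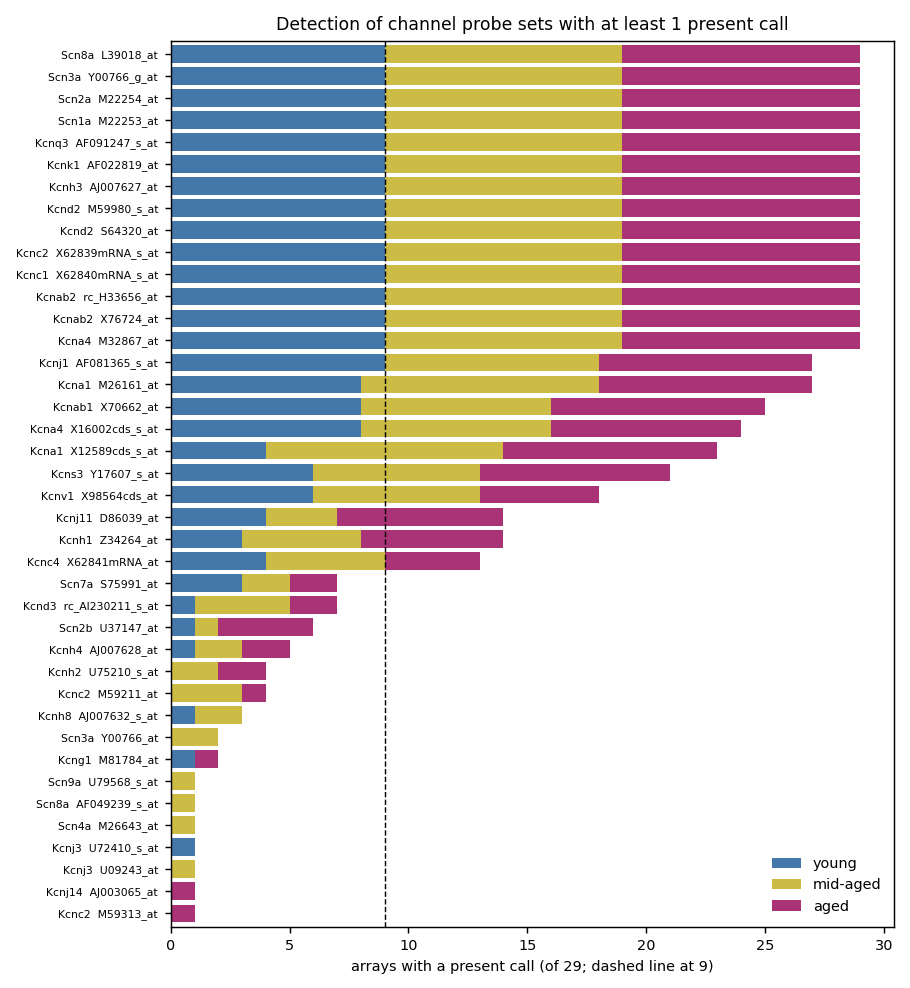
Present calls of each channel probe set with at least 1, as the number of arrays on the x axis, stacked by age, with a dashed line at the minimum of 9. The bars fall from 29 arrays for 14 probe sets to 13 for Kcnc4, the last that was tested, and 7 for Scn7a and Kcnd3, the first that were not.

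Detection differed between channel families. Of the pore subunits of voltage-gated potassium channels, 14 of 41 probe sets and 11 of 27 genes were tested, namely Kcna1, Kcna4, Kcnc1, Kcnc2, Kcnc4, Kcnd2, Kcnh1, Kcnh3, Kcnq3, Kcns3 and Kcnv1. Of the sodium channel pore subunits, 4 of 16 probe sets passed, for Scn1a, Scn2a, Scn3a and Scn8a, and all 4 were present on all 29 arrays. The auxiliary potassium subunits gave 3 of 8, for Kcnab1 and Kcnab2. Inward rectifiers, which pass potassium mainly near the resting potential, gave 2 of 22, for Kcnj1 and Kcnj11. The 2-pore leak channels gave 1 of 4, for Kcnk1. None of the 7 probe sets of calcium- or sodium-activated channels was present on any array: these are 4 of Kcnma1, the large-conductance channel, and 1 each of Kcnn1, Kcnn3 and Kcnt1. The only auxiliary sodium subunit among the members, Scn2b, was present on 6 arrays, 1 young, 1 mid-aged and 4 aged.

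The minimum fell in a gap of the calls. Just inside it lay Kcnc4 with 13 present calls and Kcnh1 and Kcnj11 with 14 each. Just outside lay a probe set of Kcnd3 and one of Scn7a with 7 each, Scn2b with 6 and Kcnh4 with 5. Several well-known forebrain channels had no present call at all, among them Kcna2, the usual partner of Kcna1 in axons, and Kcnj10, the main inward rectifier of astrocytes. In all, 33 of the 64 genes had none.

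Different probe sets for the same gene often disagreed on detection. Of 27 genes with more than 1 probe set, 4 had all of them tested, 16 had none, and 7 were split. A probe set of Kcnc2 was present on 29 arrays while its other 3 were present on 4, 1 and 0. For Scn8a the counts were 29, 1 and 0, for Kcnj1 27, 0 and 0, and for Scn3a 29 and 2. Kcnq3 and Kcnh3 each had 1 probe set at 29 and 1 at 0. The tested values of these genes therefore rest on a single probe set. Kcnj1, best known as the secretory channel of the kidney tubule, is one of them. A further limit is that 8 of the 24 tested probe sets are of the _s_at type, whose probes can match more than 1 transcript.

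Present calls were then compared by age. Between aged and young arrays 0 of the 99 members passed the threshold for present calls (Fisher's exact test, two-sided, adjusted over all 8740 probe sets), against 0.0% of all probe sets. At an unadjusted p under 0.05 the count was 0 of 99 against 0.87%. The lowest p, 0.0573, belonged to the probe set X12589cds_s_at of Kcna1, which had a present call on 4 of the 9 young arrays, all 10 mid-aged arrays and 9 of the 10 aged arrays.

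The comparison of aged with young rats asked whether channel transcripts differ between the ends of the age range. None of the 24 tested members passed the threshold, an adjusted p of 0.05 in a limma fit of all 3 ages with Benjamini-Hochberg adjustment over all 3861 tested probe sets, which called 1.66% of them. At an unadjusted p under 0.05 there was 1 of 24, against 14.2% of all tested. The members were measured less precisely, with a median SE of 0.15 beside 0.12 over all tested. No member's aged and young arrays failed to overlap, against 0.363% of all tested. The log2 differences of the members ran from -0.27 to 0.33 with a median of 0.01, beside -0.02 over all tested, and 13 of 24 were positive. The 95% interval of the difference lay within a 2-fold change either way for 24 of 24 members and within 1.5-fold for 19. In tissue RNA, fewer cells of a type and less RNA per cell cannot be told apart. All signals below are log2 values, each compared within its own probe set.

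**Figure D2:**
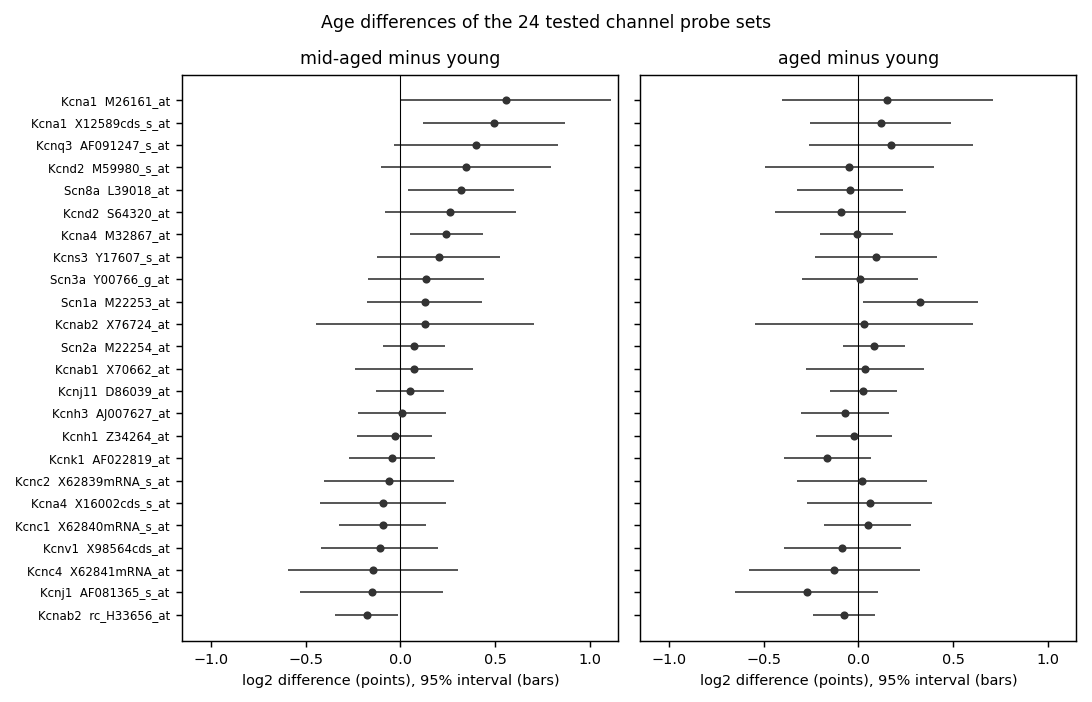
Log2 difference (points) and 95% interval (bars) of the 24 tested channel probe sets, mid-aged minus young on the left and aged minus young on the right, ordered by the left panel. Aged minus young lies between -0.27 and 0.33, and mid-aged minus young reaches 0.55 for Kcna1.

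Between aged and young, the smallest p of any member was that of a sodium channel. Scn1a, a pore subunit known for its part in the firing of inhibitory interneurons, had signals from 9.81 to 10.49 (median 10.31) in young rats, from 9.69 to 10.83 (median 10.50) in mid-aged rats and from 10.05 to 11.10 (median 10.54) in aged rats. Aged arrays tended to lie higher, 7 of 10 above the young median, but the ages overlapped. The aged minus young difference was 0.33 ± 0.15 (SE), with a 95% interval of 0.02 to 0.63 and an adjusted p of 0.311 in limma. It therefore did not pass. Fitted with a style term it was 0.51 ± 0.16 (SE), with an adjusted p of 0.0962 by limma. Leaving out the 6 arrays that stand apart gave 0.20 ± 0.15 (SE).

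Scn2a, the main sodium channel of excitatory axons and present on every array, was among the steadiest members. Its signals ran from 11.96 to 12.29 (median 12.07) in young rats, from 11.81 to 12.41 (median 12.25) in mid-aged rats and from 12.02 to 12.45 (median 12.18) in aged rats, which overlap almost fully. The difference aged minus young was 0.08 ± 0.08 (SE), with an interval of -0.08 to 0.25 and a limma adjusted p of 0.688. Scn3a, the sodium channel best known from the embryonic rat brain, differed by 0.01 ± 0.15 (SE).

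Scn8a, the sodium channel of mature axon initial segments and nodes of Ranvier, had its highest mean in the middle age. Signals ran from 9.91 to 10.30 (median 10.06) in young rats, from 9.99 to 10.87 (median 10.35) in mid-aged rats and from 9.16 to 10.56 (median 10.14) in aged rats. The young arrays lay close together, and the aged ones spread both below and above them. Of the mid-aged arrays 9 of 10 lay above the young median, with a difference of 0.32 ± 0.14 (SE) and an adjusted p of 0.390 in limma. The aged minus mid-aged difference was -0.36 ± 0.13 (SE) with an adjusted p of 0.882, so neither step passed. Scn8a signals also fell as the Gapdh 3′ to 5′ ratio, a measure of RNA quality given below, rose (r = -0.50, rho = -0.63, permutation adjusted p = 0.0742 and 0.00567). Over all alternative fits, among them one with that ratio as a covariate, mid-aged minus young ran from 0.20 to 0.37. Aged minus mid-aged ran from -0.42 to -0.25. The part of the ratio in either step was not tested further.

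For the leak and inward rectifier channels the aged means were lower or level. Kcnk1, a 2-pore channel, had signals from 9.97 to 10.63 (median 10.28) in young rats, from 9.69 to 10.68 (median 10.23) in mid-aged rats and from 9.61 to 10.42 (median 10.12) in aged rats. Of the aged arrays 8 of 10 lay below the young median, and the difference was -0.16 ± 0.11 (SE) with a limma adjusted p of 0.537. Kcnj1 ran from 8.46 to 9.55 (median 8.79) in young rats, from 7.80 to 9.34 (median 8.74) in mid-aged rats and from 7.77 to 9.12 (median 8.65) in aged rats. Its difference, -0.27 ± 0.18 (SE), was the lowest of any member and had an interval of -0.65 to 0.10 and an adjusted p of 0.534 by limma. Within the longer name style, the one style that the aged arrays have, the difference was -0.30 ± 0.14 (SE) for Kcnk1 and -0.55 ± 0.23 (SE) for Kcnj1, with adjusted p of 0.435 and 0.396 in limma. Without the 6 arrays least like the rest it was -0.08 ± 0.12 (SE) and -0.14 ± 0.19 (SE). Kcnj11, the pore of the ATP-sensitive channel that ties excitability to metabolism, differed by 0.03 ± 0.09 (SE).

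The comparison of mid-aged with young rats asked about the first step of age. Again 0 of 24 members passed, with 0.414% of all tested probe sets called. At an unadjusted p under 0.05 there were 4 of 24 members, against 11.2% of all tested. Groups that did not overlap were found for 0 members and 0.0259% of all tested. The members' log2 differences ran from -0.18 to 0.55 with a median of 0.07, beside -0.02 over all tested, and 15 of 24 were positive. All 4 sodium channel members were positive, from 0.07 to 0.32. The 95% interval lay within 2-fold for 23 of 24 and within 1.5-fold for 16.

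Kcna1, a low-threshold potassium channel of axons that restrains repetitive firing, had the lowest adjusted p of this step on 1 of its probe sets. X12589cds_s_at ran from 10.05 to 11.76 (median 10.30) in young rats, from 10.57 to 11.66 (median 11.06) in mid-aged rats and from 10.23 to 11.02 (median 10.71) in aged rats. Most young arrays lay low, 1 lay among the higher mid-aged ones and 1 above every mid-aged array, while 10 of 10 mid-aged arrays lay above the young median. The mid-aged minus young difference was 0.49 ± 0.18 (SE), with an interval of 0.12 to 0.87 and an adjusted p of 0.284 in limma.

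A second probe set of Kcna1, M26161_at, ran the same way over all arrays with a wider spread. Its signals ran from 7.99 to 10.11 (median 9.10) in young rats, from 9.02 to 10.57 (median 9.25) in mid-aged rats and from 7.77 to 9.76 (median 9.21) in aged rats, and the mid-aged minus young difference was 0.55 ± 0.27 (SE) with a limma adjusted p of 0.453. Its mean was 8.46 in young and 9.39 in mid-aged rats within the shorter name style. Within the longer style it was 9.60 and 9.61, so the rise was seen in the shorter style only. Across arrays the deviations of both probe sets from their age means went together (Pearson's r = 0.69, Spearman's rho = 0.60). Within the longer style r was 0.70, and within the shorter 0.38.

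The Kcna1 values differed by column-name style mainly among young arrays. Means of X12589cds_s_at in the shorter and longer style were 10.26 and 11.01 in young, and 11.04 and 11.11 in mid-aged rats. Among arrays of the shorter style, it ran from 10.05 to 10.65 (n = 5) in young and 10.86 to 11.18 (n = 4) in mid-aged rats, which did not overlap. The share of all tested probe sets that did not overlap among these few arrays was not counted. Among arrays of the longer style it ran from 10.26 to 11.76 (n = 4) in young and 10.57 to 11.66 (n = 6) in mid-aged rats, which overlapped almost fully. The difference was 0.78 ± 0.13 (SE) within the shorter style, with a limma adjusted p of 0.0406, and 0.11 ± 0.25 (SE) within the longer, with an adjusted p of 0.984. Fitted together with a term for the style it was 0.43 ± 0.17 (SE), with an adjusted p of 0.342 by limma. With arrays weighted by how well they fitted, the difference was 0.61 ± 0.16 (SE) and passed, with a limma adjusted p of 0.0399. These signals also fell as the actin 3′ to 5′ ratio, a measure of RNA quality given below, rose (r = -0.52, rho = -0.71, permutation adjusted p = 0.00801 and 0.00072). The sources used here do not say what the style stands for, and neither its part nor that of the ratio in the difference was tested further.

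Kcna4, which forms a fast-inactivating channel of axons and terminals, gave opposite signs on its probe sets. M32867_at ran from 8.62 to 9.19 (median 8.76) in young rats, from 8.69 to 9.30 (median 9.11) in mid-aged rats and from 8.53 to 9.10 (median 8.89) in aged rats, and 9 of 10 mid-aged arrays lay above the young median. Its difference was 0.24 ± 0.09 (SE) with a limma adjusted p of 0.322. X16002cds_s_at ran from 8.80 to 9.62 (median 9.05) in young rats, from 8.37 to 9.74 (median 8.93) in mid-aged rats and from 8.70 to 9.69 (median 9.18) in aged rats, with a difference of -0.09 ± 0.16 (SE) and an adjusted p of 0.868 in limma. The sign of X16002cds_s_at turned with the name style, at -0.53 ± 0.14 (SE) within the shorter and 0.20 ± 0.20 (SE) within the longer, while M32867_at was at 0.27 ± 0.12 (SE) and 0.25 ± 0.14 (SE). Across arrays the deviations of both probe sets had a Pearson's r of -0.31 and a Spearman's rho of -0.22, and no direction is given for this gene.

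**Figure D3:**
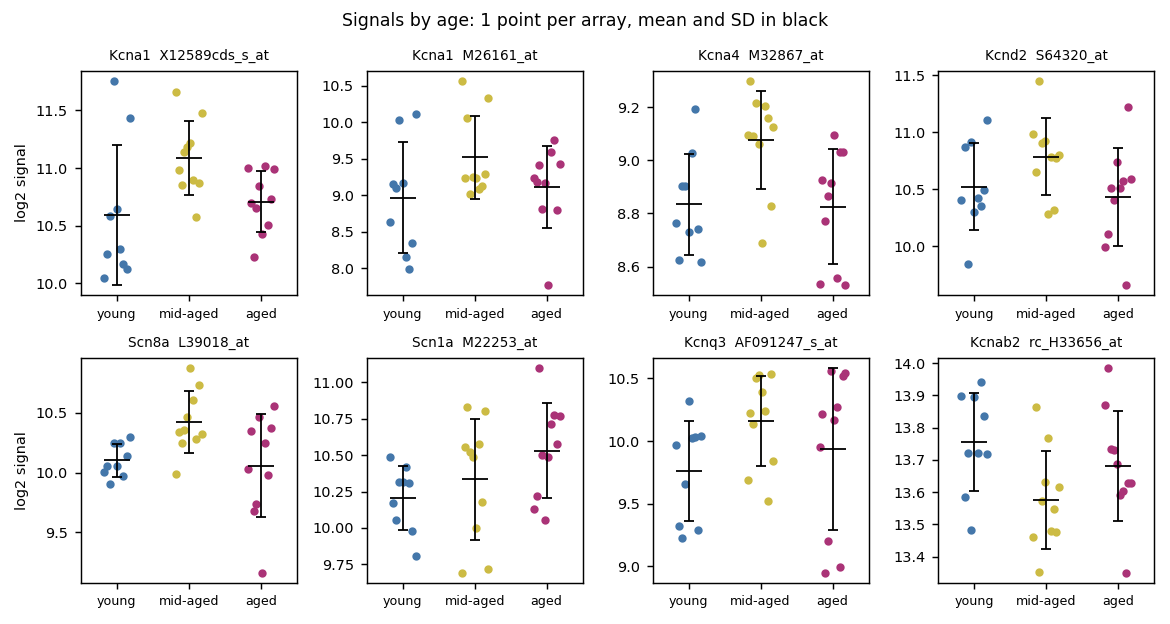
Log2 signal of 8 channel probe sets by age, 1 point per array, with the mean and SD in black, each panel on its own y axis. All 8 overlap between ages. The mid-aged means are the highest for both Kcna1 probe sets, Kcna4 M32867_at, Kcnd2, Scn8a and Kcnq3, and the lowest for Kcnab2 rc_H33656_at.

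Kcnq3, a subunit of the slow muscarine-sensitive current, ran from 9.23 to 10.31 (median 9.97) in young rats, from 9.52 to 10.54 (median 10.23) in mid-aged rats and from 8.95 to 10.55 (median 10.19) in aged rats. The aged arrays fell into high and low values with 3 of 10 below every young array, and these are the 3 aged arrays among the 6 least like the rest. The mid-aged minus young difference was 0.40 ± 0.21 (SE) with an adjusted p of 0.497 in limma. The aged minus young difference was 0.17 ± 0.21 (SE) over all arrays and 0.49 ± 0.14 (SE) without those 6, with adjusted p of 0.768 and 0.0633 by limma.

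Kcnd2, the pore of the dendritic A-type current of CA1 pyramidal cells, has both probe sets present on every array. S64320_at ran from 9.85 to 11.11 (median 10.42) in young rats, from 10.28 to 11.45 (median 10.79) in mid-aged rats and from 9.66 to 11.22 (median 10.51) in aged rats, and M59980_s_at ran from 10.13 to 11.32 (median 11.05) in young rats, from 10.75 to 11.85 (median 11.37) in mid-aged rats and from 9.37 to 11.54 (median 11.13) in aged rats. Both had their highest mean in mid-aged rats, by 0.26 ± 0.17 (SE) and 0.35 ± 0.22 (SE) over young, with adjusted p of 0.586 and 0.578 by limma. Within the shorter name style the mid-aged minus young difference of S64320_at was 0.59 ± 0.14 (SE), with a limma adjusted p of 0.0788, and within the longer it was -0.03 ± 0.26 (SE). For M59980_s_at it was 0.32 ± 0.15 (SE) and 0.39 ± 0.36 (SE). Aged minus young was -0.09 ± 0.17 (SE) and -0.05 ± 0.22 (SE) over all arrays.

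Of the subunits of the fast-spiking type, Kcnc2 varied with the name style. Kcnc1 and Kcnc2 belong to the family that lets interneurons fire fast, by opening only at high voltage and closing quickly. Kcnc1 ran from 9.96 to 10.79 (median 10.40) in young rats, from 9.85 to 10.65 (median 10.45) in mid-aged rats and from 10.24 to 10.74 (median 10.49) in aged rats, and Kcnc2 ran from 10.18 to 11.70 (median 11.14) in young rats, from 10.27 to 11.62 (median 11.09) in mid-aged rats and from 10.56 to 11.42 (median 11.17) in aged rats. Aged minus young was 0.05 ± 0.11 (SE) for Kcnc1 and 0.02 ± 0.17 (SE) for Kcnc2. Their 95% intervals were -0.18 to 0.28 and -0.33 to 0.36. The young arrays of Kcnc2 ran from 11.11 to 11.70 (n = 5) in the shorter style and from 10.18 to 11.14 (n = 4) in the longer. Within the longer style aged minus young was 0.41 ± 0.18 (SE) for Kcnc2, with a limma adjusted p of 0.409, and with the style in the fit 0.35 ± 0.15 (SE), with an adjusted p of 0.272. The lowest adjusted p over all alternatives was 0.0810, with the style and array weights together.

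The cytoplasmic beta subunits, which bind the Kcna pore subunits and change their inactivation and traffic, differed among themselves. Kcnab1 ran from 10.55 to 11.51 (median 11.08) in young rats, from 10.51 to 11.75 (median 10.98) in mid-aged rats and from 10.40 to 11.43 (median 11.18) in aged rats, with aged minus young at 0.04 ± 0.15 (SE). The probe set rc_H33656_at of Kcnab2 ran from 13.48 to 13.94 (median 13.72) in young rats, from 13.35 to 13.86 (median 13.56) in mid-aged rats and from 13.35 to 13.98 (median 13.66) in aged rats. It was the only member with an unadjusted p under 0.05 and a negative sign in the first age step, at -0.18 ± 0.08 (SE) with a limma adjusted p of 0.404. The other probe set of Kcnab2, X76724_at, ran from 9.45 to 11.12 (median 10.44) in young rats, from 9.45 to 11.45 (median 10.38) in mid-aged rats and from 9.30 to 11.20 (median 10.44) in aged rats, and its difference was 0.13 ± 0.28 (SE) with an adjusted p of 0.893 by limma. Its aged minus young difference was 0.03 ± 0.28 (SE) over all arrays and 0.57 ± 0.35 (SE) within the longer name style, with an adjusted p of 0.565 in limma. In the first step the 2 probe sets had opposite signs.

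The remaining tested members, Kcnc4, Kcnh1, Kcnh3, Kcns3, Kcnv1, Kcnj11 and Scn3a, stayed between -0.14 and 0.20 in the first step. Kcnh1 and Kcnh3 are of the ether-a-go-go family, and Kcns3 and Kcnv1 are silent subunits that modify other pore subunits.

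From mid-aged to aged, 0 of 24 members passed, with 0.0518% of all tested probe sets called, and the lowest adjusted p among members was 0.882. At an unadjusted p under 0.05 there were 4 of 24 members against 5.18% of all tested. No member's ages were apart, with 0.0% of all tested. The median member difference was -0.09, beside -0.00 over all tested, and 15 of 24 were negative. The 4 were Scn8a, given above, with Kcna4 M32867_at at -0.25 ± 0.09 (SE), Kcnd2 S64320_at at -0.35 ± 0.16 (SE) and Kcna1 X12589cds_s_at at -0.38 ± 0.18 (SE). For that Kcna4 probe set and that Kcna1 probe set 10 of 10 aged arrays lay below the mid-aged median. Kcnd2 M59980_s_at, at -0.39 ± 0.21 (SE), and Kcna1 M26161_at, at -0.40 ± 0.27 (SE), had the next smallest p. The F test over the 3 ages called 0 of 24 members and 1.32% of all tested. At an unadjusted p under 0.05 it held 3 of 24 (Kcna4 M32867_at, Scn8a and Kcna1 X12589cds_s_at) against 11.2%. The other tested probe sets of Kcna4 and Kcna1 had an unadjusted p of 0.634 and 0.123 in that F test.

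Several members thus had their highest or lowest mean in the middle age. Even where ages do not differ, a mean is often highest or lowest in the middle age. The share of all tested probe sets with such a mean was not counted, so its place alone is not shown to be particular to channels. After the member values were seen, the mid-aged mean was set against the middle of young and aged. This contrast shares its arrays with both steps and is no separate evidence. It called 0 of 24 members and 0.0% of all tested. At an unadjusted p under 0.05 there were 6 of 24 members, against 5.23% of all tested. Kcna4 M32867_at was higher in mid-aged rats by 0.25 ± 0.08 (SE), with an unadjusted p of 0.00462 and a limma adjusted p of 0.764. The others were Scn8a at 0.34 ± 0.12 (SE), Kcna1 at 0.43 ± 0.16 (SE) and 0.48 ± 0.23 (SE), Kcnd2 S64320_at at 0.31 ± 0.14 (SE) and Kcnab2 rc_H33656_at at -0.14 ± 0.07 (SE). All 6 had adjusted p of at least 0.764.

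Some channel probe sets varied together across arrays within an age. For each of the 276 pairs of tested members, signals were taken as deviations from the age mean and correlated over the 29 arrays, with 100000 permutations of arrays within age and adjustment over the pairs. On Pearson's r 7 pairs passed, all positive, and 4 of them also passed on Spearman's rho. The 7 include the pair of both Kcna1 probe sets, which stand for the same gene. The share of passing pairs among all tested probe sets was not computed, so the count is not shown to be particular to channels. The median r over all pairs was 0.04, beside 0.00 over all tested probe sets. The highest was Kcnq3 with Kcnab2 X76724_at (r = 0.82, permutation adjusted p = 0.00552, rho = 0.75, permutation adjusted p = 0.00828). Next was Kcnd2 M59980_s_at with Scn3a (r = 0.77, permutation adjusted p = 0.0069, rho = 0.69, permutation adjusted p = 0.0124). Kcnab2 X76724_at also went with Kcnc4 (r = 0.65, rho = 0.63) and Kcnc2 (r = 0.62, rho = 0.64). Without the 2 arrays farthest out, these 4 values of r were 0.80, 0.56, 0.56 and 0.62. Within the longer name style they were 0.87, 0.80, 0.68 and 0.65, and within the shorter 0.38, 0.56, 0.33 and -0.40, so the last pair was negative in the shorter style.

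**Figure D4:**
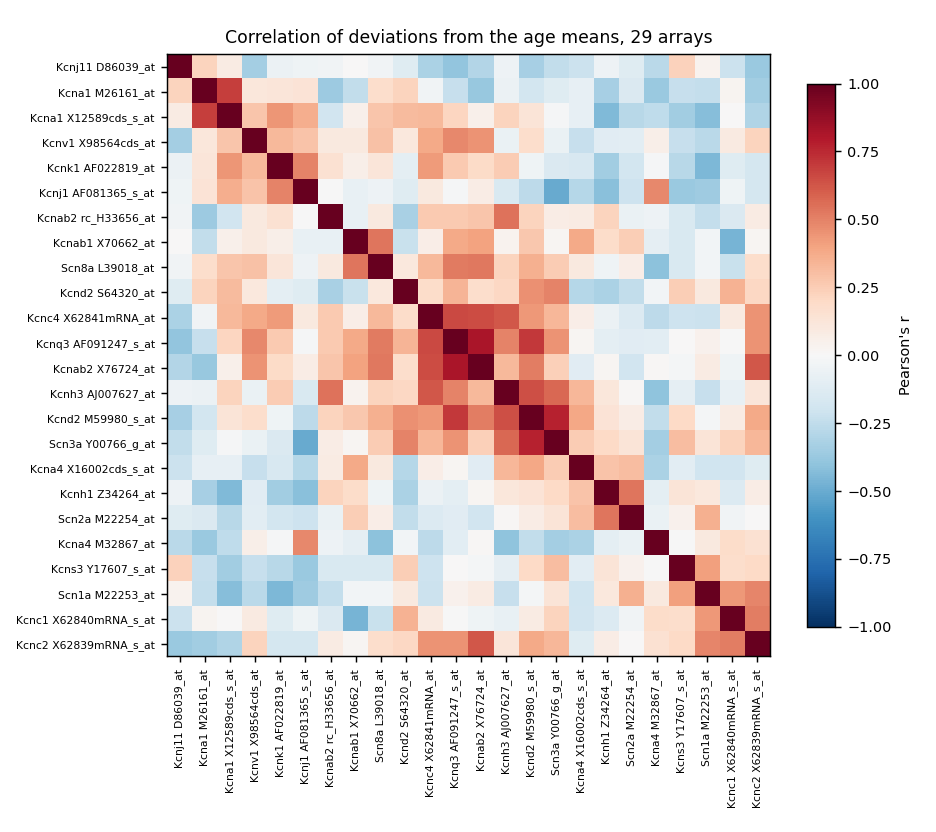
Pearson's r between the within-age deviations of the 24 tested channel probe sets over 29 arrays, as a colour from -1 to 1, with probe sets of like pattern set side by side. A block of red holds Kcnc4, Kcnq3, Kcnab2 X76724_at, Kcnh3, Kcnd2 M59980_s_at and Scn3a.

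Promoter sequences are shown for the members of these pairs that have an entry in RefSeq (assembly GRCr8), since their probe sets moved together across arrays. Kcnc2 has 2 overlapping entries, of which the first is shown. Each window runs from 250 bases before to 50 after the gene's start, written 5′ to 3′ on the gene's strand, with the GC box GGGCGG in capitals where a search of both strands found it.
Kcnab2 (chr5:168270711-168271010, minus strand): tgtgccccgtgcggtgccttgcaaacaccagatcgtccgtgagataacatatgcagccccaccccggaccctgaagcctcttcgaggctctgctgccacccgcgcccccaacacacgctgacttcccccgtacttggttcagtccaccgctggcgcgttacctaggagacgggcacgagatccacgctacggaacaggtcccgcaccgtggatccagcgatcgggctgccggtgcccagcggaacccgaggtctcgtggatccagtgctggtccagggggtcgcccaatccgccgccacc
Kcnc2 (chr7:49587364-49587663, plus strand): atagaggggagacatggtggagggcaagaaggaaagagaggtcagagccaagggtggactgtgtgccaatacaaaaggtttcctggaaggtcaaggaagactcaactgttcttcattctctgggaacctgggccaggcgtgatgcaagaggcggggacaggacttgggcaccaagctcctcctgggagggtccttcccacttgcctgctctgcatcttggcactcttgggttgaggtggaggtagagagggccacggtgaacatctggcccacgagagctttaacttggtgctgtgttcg
Kcnc4 (chr2:197788384-197788683, minus strand): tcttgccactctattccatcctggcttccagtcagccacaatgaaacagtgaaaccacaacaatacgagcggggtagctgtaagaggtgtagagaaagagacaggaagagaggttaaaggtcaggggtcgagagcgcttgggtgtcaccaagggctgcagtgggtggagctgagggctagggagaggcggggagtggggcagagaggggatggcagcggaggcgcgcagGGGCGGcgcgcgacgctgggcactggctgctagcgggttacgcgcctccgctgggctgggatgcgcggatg
Kcnd2 (chr4:50742235-50742534, plus strand): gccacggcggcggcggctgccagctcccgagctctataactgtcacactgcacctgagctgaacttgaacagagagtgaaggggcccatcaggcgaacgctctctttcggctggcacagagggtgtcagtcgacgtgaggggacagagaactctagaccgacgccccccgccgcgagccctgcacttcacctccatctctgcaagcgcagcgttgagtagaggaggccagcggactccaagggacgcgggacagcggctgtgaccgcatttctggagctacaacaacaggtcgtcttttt
Scn3a (chr3:70666149-70666448, minus strand): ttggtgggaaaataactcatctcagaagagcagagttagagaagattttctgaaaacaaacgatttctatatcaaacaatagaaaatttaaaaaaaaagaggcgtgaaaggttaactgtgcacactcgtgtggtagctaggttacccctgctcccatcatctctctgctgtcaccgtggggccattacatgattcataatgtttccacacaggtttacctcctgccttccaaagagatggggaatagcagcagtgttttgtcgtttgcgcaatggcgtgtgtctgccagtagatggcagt
Of the 5 windows only that of Kcnc4 held a GC box, on the gene's strand. Kcnab2, and Kcnc4 and Kcnc2 that went with it, had 66.0%, 62.3% and 56.0% G or C with 28, 19 and 5 CpG. Kcnd2 and Scn3a had 61.7% and 43.3% with 23 and 7. Over the 13 tested genes with an entry, 5 windows held the GC box (38.5%), against 17 of 36 among the member genes not tested (47.2%) and 34.9% of all 27457 promoters. These counts describe letters in a window and say nothing of what binds there.

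Some members varied with RNA quality. The array carries probe sets for the 3′ and the 5′ end of control transcripts, and a high 3′ to 5′ ratio marks RNA that is more broken or less fully copied. Deviations of the 24 members were set against those of the ratios of Gapdh, actin and hexokinase, 72 relations in all, with 100000 permutations within age. The share of all tested probe sets that would pass was not computed, so the counts below are not shown to be particular to channels. For the Gapdh ratio 4 members passed on Pearson's r: Kcnq3 (r = -0.77, permutation adjusted p = 0.00048, rho = -0.78), Kcnab2 X76724_at (r = -0.74, rho = -0.68), Kcnc4 (r = -0.72, rho = -0.68) and Kcnv1 (r = -0.69, rho = -0.61). Without the 2 arrays farthest out these were -0.71, -0.66, -0.65 and -0.47. Within the longer name style r was -0.77, -0.81, -0.72 and -0.71, and within the shorter -0.76, -0.45, -0.66 and -0.58. The actin ratio passed on r for 5 members, all negative, namely Kcnq3, Kcnv1, Kcnab2 X76724_at, Kcnc4 and Kcna1 X12589cds_s_at. The hexokinase ratio passed for 3, all negative, namely Kcnab2 X76724_at, Kcnq3 and Kcnc2. Of these relations only that of Kcnc2 turned sign with the name style, at r = -0.48 within the longer and 0.33 within the shorter. On Spearman's rho alone, Scn8a also passed with the Gapdh ratio (rho = -0.63, permutation adjusted p = 0.00567) and the actin ratio (rho = -0.64, permutation adjusted p = 0.00567). Kcna1 X12589cds_s_at passed with the Gapdh ratio on rho alone (rho = -0.57, permutation adjusted p = 0.00805). Kcnd2 M59980_s_at and Scn3a passed with none of the 3. The median r of the 24 members was -0.19, -0.18 and -0.12 for the 3 ratios, beside 0.01, 0.02 and -0.00 over all tested probe sets.

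**Figure D5:**
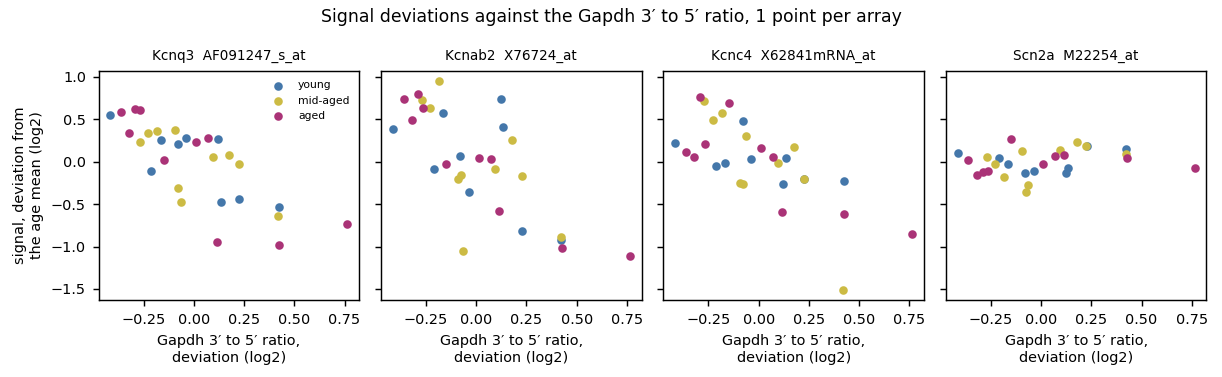
Deviation of log2 signal from the age mean (y axis) against the deviation of the log2 Gapdh 3′ to 5′ ratio (x axis), 1 point per array, coloured by age. Kcnq3, Kcnab2 X76724_at and Kcnc4 fall as the ratio rises, and Scn2a does not (r = 0.24).

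Scn2a passed with none of the 3 ratios, at r of 0.24, 0.25 and -0.10 and rho of 0.31, 0.30 and 0.04. After a line on the Gapdh ratio was taken out, a step added after the data were seen, the r of Kcnq3 with Kcnab2 X76724_at was 0.58, that of Kcnc4 with Kcnab2 X76724_at was 0.26, and that of Kcnc4 with Kcnq3 went from 0.66 to 0.24. After the actin and the hexokinase ratio these were 0.70 and 0.69, 0.47 and 0.60, and 0.48 and 0.59. For Kcnd2 M59980_s_at with Scn3a the values were 0.79, 0.84 and 0.76. The log2 Gapdh ratio averaged -0.05 ± 0.25 in young, -0.14 ± 0.22 in mid-aged and 0.05 ± 0.36 in aged rats (SD, n = 9, 10 and 10). The log2 actin ratio averaged 0.51 ± 0.31, 0.44 ± 0.37 and 0.33 ± 0.56 in the same order. With the ratio as a covariate the mid-aged minus young difference of Kcnq3 was 0.28 ± 0.14 (SE) and aged minus young was 0.31 ± 0.14 (SE), with adjusted p of 0.422 and 0.266 in limma. The part of RNA quality in any member's difference was not tested beyond these values and the alternative fit with the Gapdh ratio.

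Genes whose proteins anchor, modify or regulate the channels were read from a list. Of 38 channel partners 21 had a probe set and 16 were tested, and 0 rose and 0 fell in each of the 3 comparisons. Their median difference aged minus young was 0.13, beside -0.02 over all tested. The smallest p values belonged to Akap5, a scaffold that holds kinases and phosphatase at the postsynaptic membrane, at 0.51 ± 0.23 (SE, limma adjusted p = 0.309), and Gnb2, a G protein beta subunit, at -0.16 ± 0.08 (SE, adjusted p = 0.33). Dlg3, a postsynaptic scaffold, was at 0.28 ± 0.15 (SE, adjusted p = 0.393), and Cntnap1, of the paranodal junction beside the node of Ranvier, at -0.15 ± 0.09 (SE, adjusted p = 0.49).

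Among other cation channels and carriers, 5 of 20 listed genes were tested and 0 rose and 0 fell in any comparison. Slc12a2, the carrier that brings chloride into cells, came nearest, at 0.27 ± 0.08 (SE, limma adjusted p = 0.0969) aged minus young and 0.28 ± 0.08 (SE, adjusted p = 0.145) mid-aged minus young. Slc12a5, which removes chloride from mature neurons, was at 0.08 ± 0.11 aged minus young (adjusted p = 0.802). Trpc1 and Trpc4, of the receptor-operated channels, were at -0.12 ± 0.13 (adjusted p = 0.706) and -0.08 ± 0.09 (adjusted p = 0.712).

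Markers of other cell types gave the frame for these values. All 4 tested microglia markers, C1qb, Cd74, Ctss and Aif1, rose in aged over young rats, and their summed signal ran from 20726 to 24339 in young and from 27143 to 35420 in aged rats. Between the same ages Mag, of 5 oligodendrocyte markers, rose by 0.61. Of 3 genes tested from the vascular and choroid plexus list, Hbb rose by 1.30, while Igf2 and Ttr were at -0.10 and -0.16 and did not pass. None of 6 astrocyte, 7 neuron and 6 CA1 markers passed in any comparison. Of 8 interneuron markers Npy fell by 0.39 from young to mid-aged, a step that called 0.414% of all tested. None of the 8 passed in the other comparisons. The summed neuron markers ran from 59254 to 67581 in young and from 51441 to 69226 in aged rats, which overlap. The part of these cell types in the channel values was not tested.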

How the data were processed

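For every array the deposited file holds, per the file headers, the signal intensity and detection call of 8799 probe sets. The deposited intensities had been scaled to nearly 1 trimmed mean per array, as the values show; the sources used here do not name the software. A deposited series table of intensities served as an alternative, with its normalization unknown. In the file of 1 young array, 1 column of another young array was not used. The 59 control probe sets were left out. Signals were rescaled to 1 mean without the lowest and highest 2%, floored at 160.8, the median of absent-called values, and put on the log2 scale. Each probe set was kept on its own. Groups came from the sample titles.

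Ages were fitted with limma 3.58.1 in R 4.3.3, two-sided. Present calls were compared with Fisher's exact test. Correlations used Python 3.11.15 with numpy 2.4.6, pandas 2.3.3 and scipy 1.17.1. The steps were tested on simulated data. Named in full are the 6 members with the smallest p per comparison and members fixed by name; listed genes are named when called, or as the 4 with the smallest p. Members and lists were chosen with earlier results of these data known. Platform symbols name 1 gene for 7006 probe sets, several for 308 and none for 1426, and all 64 member symbols are current in RefSeq. Alternatives covered scaling, filter, floor, array weights, the Gapdh ratio, the replicate number as a block, leaving out each array, and the column-name style. Added after the data were seen were fits within the shorter style (mid-aged against young), style with array weights, the contrast of the middle age and the removal of the ratios from the pairs.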

Additional observations from a re-analysis of the deposited data

Results flagged for a closer look

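In 7 of 72 groups, each 1 probe set in 1 age, the lowest array lay far from the rest. Chance flags a far array at either end, lowest or highest, in about 1 in 20 groups. The groups share arrays and are not independent. For Kcna1 M26161_at aged 6 was at 7.77 on the log2 scale, with the next aged array at 8.80. For Kcnc2 X62839mRNA_s_at aged 4 was at 10.56, below 10.99. For Kcnc4 mid-aged 8 was at 7.92, below 9.17. For Kcnd2 M59980_s_at young 4 was at 10.13, below 10.80. Aged 8 was low for Kcnh3, at 11.47 below 12.05, and for Scn3a, at 9.98 below 10.71. For Kcnj11 mid-aged 4 was at 10.66, below 10.93. Young 4, mid-aged 8, aged 4 and aged 8 are among the 6 arrays least like the rest, and mid-aged 4 and aged 6 are not.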

How the results depend on the processing

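Over 46 alternatives, 17 of them other than leaving out 1 array, the counts of called members stayed at 0 in every comparison with these exceptions. With array weights, and among arrays of the shorter name style alone, mid-aged against young called 1 member, Kcna1 X12589cds_s_at, at 0.61 (limma adjusted p = 0.0399) and 0.78 (adjusted p = 0.0406), where 2.25% and 0.492% of all tested probe sets were called, against 0.414% as reported. In the deposited series table its difference was 1.16 (adjusted p = 0.176). Leaving out each array in turn gave counts from 0 to 0. The difference of Kcnab2 rc_H33656_at aged vs young, -0.07 as reported, was 0.000646 with the name style as a term, 0.00758 with style and array weights, and 0.0538 in the longer style alone, with the cause not tested. Of the 72 member differences 48 changed sign under some alternative, the largest being 0.26 in size, and none of these was called. Same-numbered arrays of different ages had r from -0.20 to 0.58 over 28 pairs (median 0.09, 13 over 0.1), beside a median of 0.0015 for other pairs. For 3 of 29 arrays the most similar array of another age had the same number. Whether the numbers pair the arrays is not stated and was not tested further. The fit with the replicate block called 0 members. Dim probe sets limit the account: 75 members were not tested, and calls absent there carry no level.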

Other observations

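With no filter on present calls, 0 of the 75 members left out passed in any comparison (limma, lowest adjusted p = 0.237). That value belonged to Kcnd3 rc_AI230211_s_at, a relative of Kcnd2 in the A-type current, at 0.91 ± 0.26 (SE) mid-aged minus young, with present calls on 1 young, 4 mid-aged and 2 aged arrays. In the promoter windows the motif TGACG, searched on both strands, was found for 1 of 13 tested genes (7.69%), 8 of 36 not tested (22.2%) and 22.0% of all promoters.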
